A study of Mus musculus with 2 samples.

Results

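The E proteins and their Id inhibitors were examined as 6 genes taken by symbol, *Tcf3*, *Tcf12*, *Tcf4*, *Id1*, *Id2*, and *Id3*, out of 48321 gene symbols in the count tables. All 6 were listed in both libraries. RNA-seq had been performed on sorted CD4- mature thymocytes of MHC-II0:CD8ab-Tg mice, with 2 libraries of 1 group, called replicate 1 and replicate 2. These mice, on a C57Bl/6 background, are I-Ab-/- and therefore lack MHC class II. Both copies of their endogenous CD8 genes carry the Cd8 Δab allele, in which the coding sequence is disrupted. One Rosa26 8a and one Rosa26 8b allele supply CD8α and CD8β instead, once the Cd4-Cre transgene, active from the CD4+CD8+ stage, has removed a stop cassette. Transgenic CD8αβ was reported to be lower than endogenous CD8. The age and sex of the mice were not given in the sources used here, and libraries of wild-type mice were not analysed here. The sample titles call the cells CD4-CD8- and the cell type label calls them CD8+, whereas the study names them CD4- mature thymocytes.

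E proteins are transcription factors with a basic helix-loop-helix region. The helices hold a pair of such proteins together, and the basic stretch before them binds E-box motifs in DNA. Id proteins have the helices without a DNA-binding basic stretch, so a pair of an E protein and an Id protein does not bind DNA. In the thymus, E proteins drive early T cell development and hold thymocytes at the CD4+CD8+ stage, and Id proteins are induced by receptor signals as thymocytes mature. Loss of *Id2* or *Id3* is known to alter innate-like T cells, including iNKT cells, and *Id2* is also needed by effector CD8+ T cells.

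The coding sequence of the helix-loop-helix stretch is shown for the 4 members with the highest counts, since this is the part that E and Id proteins share and through which they pair. The sequences come from the principal coding transcripts of the GENCODE M21 annotation of GRCm38 (mm10), and each lies within 1 exon. The *Tcf3* stretch is at chr10:80410411-80410530 on the minus strand, that of *Tcf12* at chr9:71856318-71856437 on the minus strand, that of *Id2* at chr12:25095783-25095899 on the minus strand, and that of *Id3* at chr4:136144005-136144121 on the plus strand. Each is printed 5′ to 3′ on the coding strand, and capitals mark the codons of the 7 residues, of 39 aligned, that are the same in all 4 genes.
Tcf3: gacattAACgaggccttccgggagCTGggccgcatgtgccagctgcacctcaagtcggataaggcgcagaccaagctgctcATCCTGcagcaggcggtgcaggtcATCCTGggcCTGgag
Tcf12: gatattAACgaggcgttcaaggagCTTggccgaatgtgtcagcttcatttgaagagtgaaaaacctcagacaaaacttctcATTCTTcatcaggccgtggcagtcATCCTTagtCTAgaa
Id2: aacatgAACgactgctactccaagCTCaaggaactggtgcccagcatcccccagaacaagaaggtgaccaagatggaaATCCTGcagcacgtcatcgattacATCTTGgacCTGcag
Id3: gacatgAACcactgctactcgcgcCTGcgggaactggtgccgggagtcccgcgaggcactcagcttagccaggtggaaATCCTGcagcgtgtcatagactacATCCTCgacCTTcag

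In the transcripts used, the E proteins were closer to one another within this stretch than the Id proteins were. The transcripts used for *Tcf3* and *Tcf12* encode the same residue at 34 of 40 positions (85.0%), and those for *Tcf12* and *Tcf4* at 38 of 40 (95%). *Id2* and *Id3* share 24 of 39 residues (61.5%), and *Id1* and *Id2* share 30 of 39 (76.9%). Between an E protein and an Id protein the identity was 20.5% to 28.2%, below the identity within either family. The 15 residues before the stretch hold 6 arginine or lysine residues in each E protein, against 0 in Id1, 2 in Id2, and 2 in Id3. The stretch lies near the end of the E proteins, at residues 558 to 597 of 648 in the *Tcf3* product. The Id proteins are short, and it takes up residues 38 to 76 of 134 in Id2 and 43 to 81 of 119 in Id3.

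Counts on genes summed to 16732644 in replicate 1 and 16245849 in replicate 2, which were 40.6% and 41.2% of the uniquely aligned reads. Levels are given as CPM, a gene's counts scaled to the library's total on genes, and the floor of 3 counts corresponds to 0.179 and 0.185 CPM. Transcripts of mature αβ T cells were present, since all 9 listed markers were at or above 1 CPM in both libraries. Their summed level was 3452 and 3309 CPM. It includes *Cd8a* (158 and 171 CPM) and *Cd8b1* (775 and 786 CPM), which the Rosa26 alleles express in these mice. The endogenous allele lacks exon 1 of *Cd8a* and exon 2 of *Cd8b1*. Counts per gene do not separate reads of the Rosa26 alleles from any reads of the other endogenous exons. *Cd8a* and *Cd8b1* therefore do not by themselves identify the cells here. *Cd4* was at 12 and 27 counts. The libraries differed at sex-linked genes, with 34 and 25266 counts of *Xist* and 2450 and 0 counts of *Ddx3y*, so they came from different mice, and a difference between the replicates cannot be told apart from one between sexes. The labels do not give the number of mice or sorts behind each library. The exact test below sets the difference between these 2 libraries against counting error, and does not include the variation between mice. The intervals hold counting error alone. They may be too narrow even for that, because the reads carried no molecular identifiers and copies of 1 molecule could be counted repeatedly.

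Of the E protein genes, *Tcf12* and *Tcf3* were strongly detected and *Tcf4* was low. *Tcf12*, which encodes the E protein HEB, had 2634 counts in replicate 1 and 2957 in replicate 2, or 157 and 182 CPM (169.7 ± 17.4 CPM, SD, n = 2). *Tcf3*, whose product is required in early B and T cell development, had 2316 and 2545 counts, or 138 and 157 CPM (148 ± 12.9 CPM, SD, n = 2). For both genes replicate 2 was the higher library, and the Wilson 95% intervals of the libraries did not overlap: 151.5 to 163.5 against 176 to 189 CPM for *Tcf12*, and 133 to 144 against 151 to 163 CPM for *Tcf3*. *Tcf4*, best known for its need in plasmacytoid dendritic cells, had 63 and 46 counts, or 3.77 and 2.83 CPM (3.30 ± 0.660 CPM, SD, n = 2). It was above the floor in both libraries, and its intervals of 2.94 to 4.82 and 2.12 to 3.78 CPM overlapped. *Tcf3* is at chr10:80409514-80433647 on the minus strand with 14 annotated transcripts, and *Tcf12* at chr9:71842688-72111871 on the minus strand with 21.

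Of the Id genes, *Id2* was the highest, *Id3* followed, and *Id1* was at the limit of detection. *Id2* had 2277 counts in replicate 1 and 2042 in replicate 2, or 136 and 126 CPM (131 ± 7.35 CPM, SD, n = 2). *Id3*, a target of Egr factors downstream of the TCR, had 938 and 1170 counts, or 56.1 and 72.0 CPM (64.0 ± 11.3 CPM, SD, n = 2). The libraries were ordered in opposite ways for these 2 genes, with *Id2* higher in replicate 1 and *Id3* higher in replicate 2. The intervals of *Id3* were apart, at 52.6 to 59.8 and 68.0 to 76.3 CPM, and those of *Id2* touched, at 131 to 142 and 120 to 131 CPM. *Id1*, a BMP-induced member of the family, had 1 and 4 counts, or 0.0598 and 0.246 CPM. The count of 1 lies under the floor and that of 4 just above it, so no fold is given and *Id1* is left out of the order of levels below. *Id2* is at chr12:25093799-25097140 on the minus strand, *Id3* at chr4:136143497-136145755 on the plus strand, and *Id1* at chr2:152736251-152737410 on the plus strand. *Id4*, the remaining gene of the family, was not a member and had 0 counts in both libraries, which allows up to 0.179 and 0.185 CPM.

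**Figure D1:**
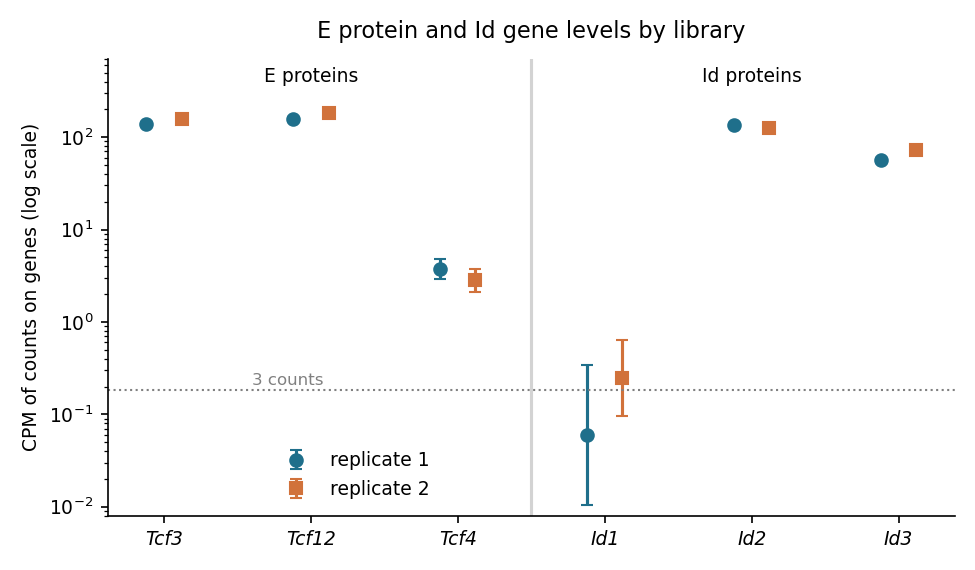
CPM of the 6 genes in replicate 1 (circles) and replicate 2 (squares) on a log axis, with Wilson 95% intervals as bars where they are wider than the symbol and the floor of 3 counts, drawn for replicate 2, as a dotted line. *Tcf3*, *Tcf12*, *Id2*, and *Id3* lie between 56.1 and 182 CPM, *Tcf4* near 3 CPM, and *Id1* around the floor.

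The counts of the members were little exposed to other genes. None of their annotated exons overlaps an exon of another gene on either strand, so the strand setting of the counting, which was not given in the sources used here, does not move reads between a member and an antisense gene. Of the 50-base windows in their transcripts, the read length used, 0% also occurred in another gene for *Tcf3*, *Id1*, and *Id3*. The share was 0.242% for *Tcf12*, 0.228% for *Tcf4*, and 0.329% for *Id2*, whose 8 shared windows occur in *Gm6175*. The symbols are easily mistaken: *Tcf7* and *Lef1* encode HMG-box factors and are not E proteins. *Tcf7* had 849 and 814 CPM and *Lef1* 219 and 229 CPM, while *Tcf7l1* had 22 and 13 counts and *Tcf7l2* 6 and 12 counts.

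Levels of different genes were compared per length, as CPM per kb of annotated exon, because a long transcript gives more reads. On this scale *Id2* was the highest member, at 55.8 and 51.6 CPM per kb. *Tcf3* (34.3 and 38.8) and *Id3* (31.3 and 40.2) came next, and their ranges over the libraries overlapped, so they were not ordered. *Tcf12*, whose annotated exons sum to 15.529 kb against 4.039 kb for *Tcf3*, was at 10.1 and 11.7 CPM per kb, and *Id3* had 3.27 times its mean level. *Tcf4*, at 0.138 and 0.103 CPM per kb, was the lowest of the 5 genes ordered. Among 11762 protein-coding genes above 3 counts in both libraries, the level per kb of *Id2* was at percentile 94.7, *Tcf3* at 91.2, *Id3* at 91.0, *Tcf12* at 67.4, and *Tcf4* at 4.52. Ranked per kb of longest transcript, *Tcf12* was at percentile 81.6 and *Tcf4* at 11.1, while *Id2* (94.0), *Tcf3* (91.4), and *Id3* (91.4) were little changed.

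The order below *Id2* depended on the gene length used, since the annotated exons need not all be used in these cells. Per kb of the longest transcript, *Id2* was again first at 66.5 CPM per kb, *Id3* (50.1) and *Tcf3* (50.0) overlapped, and *Tcf12* was at 26.9. Per kb of coding exon, *Id2* (252) and *Id3* (179) stood above both E protein genes, and *Tcf12* (70.1) and *Tcf3* (66.3) overlapped. The counts divided by coding length were those of the whole gene, not of its coding exons alone. Coding exons sum to 0.519 kb for *Id2*, 0.357 kb for *Id3*, 2.422 kb for *Tcf12*, and 2.226 kb for *Tcf3*. This raises the level most where they are a small part of the gene's exons. *Id2* was first and *Tcf4* last of the 5 genes with each of the 3 lengths.

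**Figure D2:**
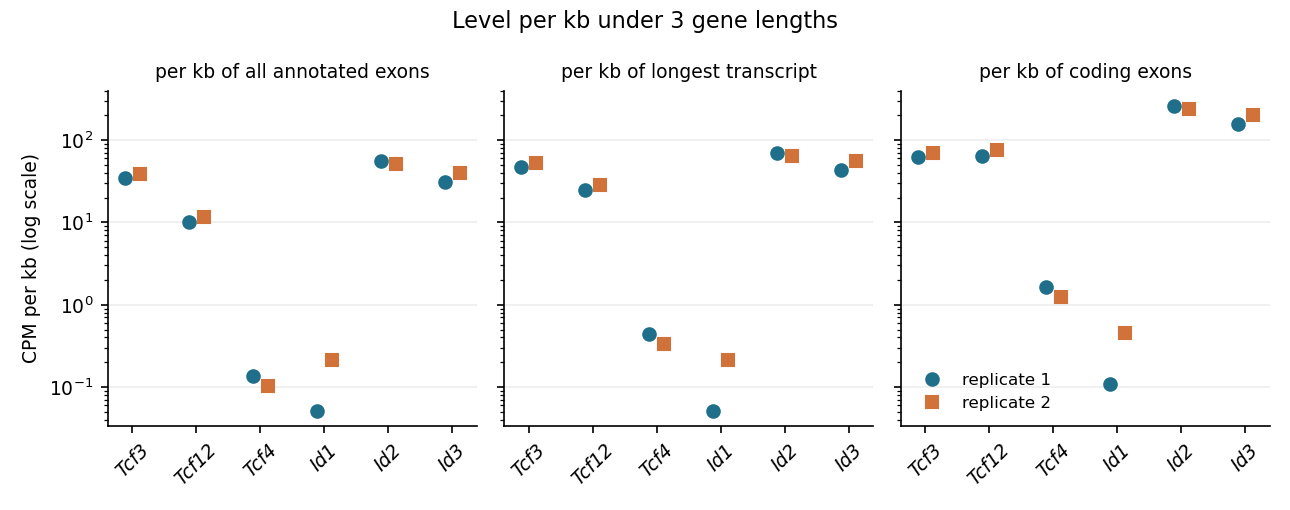
CPM per kb (log axis) of the 6 genes in replicate 1 (circles) and replicate 2 (squares), with the length taken as all annotated exons, the longest transcript, or the coding exons. *Id2* is highest in each panel, and *Tcf12* moves from well below *Tcf3* in the first panel to the level of *Tcf3* in the last.

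The balance of the 2 families was described by the sum of the Id genes over the sum of the E protein genes within a library, which does not depend on library size. Per kb of annotated exon, the E protein sum was 44.5 CPM per kb in replicate 1 and 50.6 in replicate 2, and the Id sum was 87.2 and 92.0. The ratio was 1.96 and 1.82 (1.89 ± 0.0987, SD, n = 2), so the Id sum was the larger in both libraries. With the longest transcript the ratio was 1.56 and 1.46. With the coding length, by which counts of whole genes were divided, the ratio was 3.25 and 3.03. From counts with no length correction it was 0.642 and 0.580, so which family was ahead depended on correcting for length. Transcript sums do not measure protein, and in sorted bulk cells, fewer cells expressing a gene and less RNA of it per cell cannot be told apart.

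Within the families, *Tcf3* and *Tcf12* made up nearly the whole E protein sum, and *Id2* and *Id3* nearly the whole Id sum. Per kb of annotated exon, *Tcf3* gave 76.9% and 76.6% of the E protein sum and *Tcf12* 22.8% and 23.2%. *Tcf4* gave 0.309% and 0.204%. With the coding length the 2 main genes were near equal, at 48.3% and 47.9% for *Tcf3* and 50.4% and 51.2% for *Tcf12*. In the Id sum, *Id2* gave 64.0% in replicate 1 and 56.1% in replicate 2, *Id3* 35.9% and 43.7%, and *Id1* under 1% in both. The makeup of the E protein sum therefore moved by less than 1 percentage point between the libraries, and that of the Id sum by more.

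**Figure D3:**
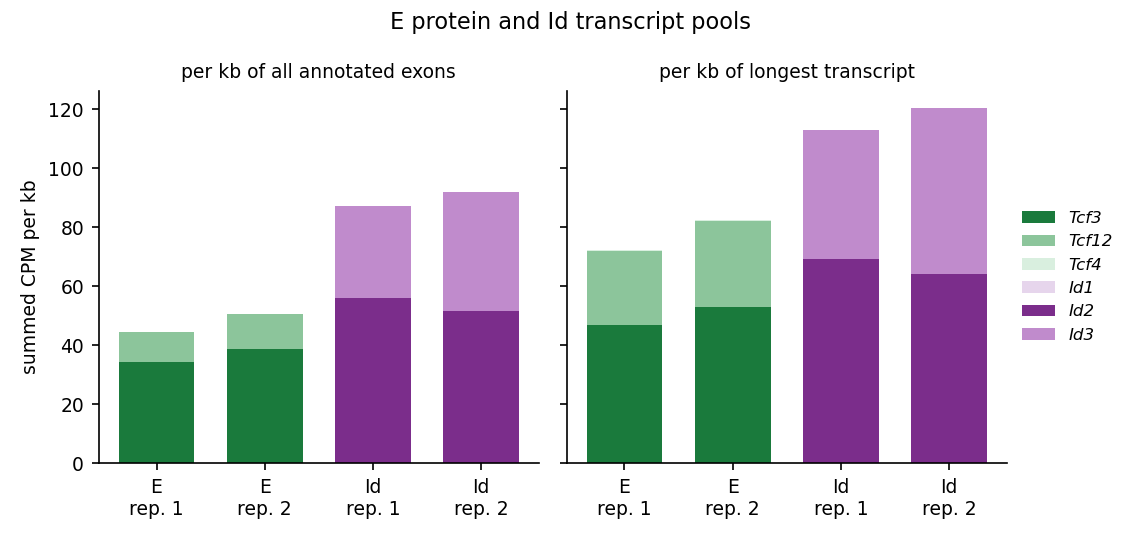
Summed CPM per kb of the E protein genes (green) and of the Id genes (purple) in each library, per kb of all annotated exons on the left and of the longest transcript on the right, with shades for the genes; *Tcf4* and *Id1* are too low to be seen. The Id bar is taller than the E bar of the same library in both panels, at 87.2 against 44.5 and 92.0 against 50.6 on the left.

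Differences between the libraries were tested by a two-sided exact binomial test of each gene's counts against the library totals, with Benjamini-Hochberg adjustment over the 15949 genes with at least 10 counts. This compares 2 libraries of 1 group and no conditions. Of the 6 members, 5 could be tested and 3 differed at an adjusted p under 0.05, *Tcf3*, *Tcf12*, and *Id3*, all higher in replicate 2. Of all genes tested, 16.3% passed this threshold, and of the 5719 genes with at least 1000 counts, as all 4 high members have, 31.2% did. None of the 5 members differed by at least 2-fold, against 1.52% of all genes. When variation beyond counting was allowed for, by an edgeR exact test with a fixed coefficient of 0.1, none of the 5 passed, each with an adjusted p of 1, against 0.464% of all genes.

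*Id3* moved the most of the 4 high members, by 1.28-fold, a log2 ratio of replicate 2 to replicate 1 of 0.36 (95% exact interval 0.24 to 0.49, exact binomial test, adjusted p = 4.19e-07). *Tcf12* was 1.16-fold higher in replicate 2, a log2 ratio of 0.21 (0.13 to 0.29, exact binomial test, adjusted p = 1.96e-06). *Tcf3* was 1.13-fold higher, a log2 ratio of 0.18 (0.10 to 0.26, exact binomial test, adjusted p = 0.000308). These changes were all under 2-fold. In genes with at least 1000 counts over both libraries, the middle 95% of log2 ratios ran from -0.20 to 0.34. Their median was 0.08. *Tcf12* and *Tcf3* lay within this range and *Id3* just above it. *Id3* lay at percentile 97.8 of these ratios, *Tcf12* at 88.2, *Tcf3* at 82.6, and *Id2* at 6.40. *Id2* had a log2 ratio of -0.11 (-0.20 to -0.03) and did not pass, with an adjusted p of 0.0550 in the exact binomial test. *Tcf4* had a log2 ratio of -0.41 (-0.99 to 0.16) and an adjusted p of 0.371 in the same exact test, so a difference of that size was not detectable at its depth.

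Part of this depends on how the libraries were scaled. With total counts, 82.7% of the genes that differed were higher in replicate 2, against 48.1% with edgeR's TMM library sizes and 57.3% with DESeq2 size factors. With TMM the log2 ratio of *Tcf3* was 0.10 and it no longer passed the exact test (adjusted p = 0.108), while *Id2*, at -0.19, did (adjusted p = 0.000312). With DESeq2 size factors *Id2*, at -0.18, also passed the exact test (adjusted p = 0.00134). *Tcf12* and *Id3* passed with each scaling, and no member changed direction. Mitochondrial and ribosomal RNA genes, 392 in all, took 15.2% of the counts in replicate 1 and 12.2% in replicate 2. The part of this share in the members' differences was not tested beyond these scalings.

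Ratios between members are free of the scaling. The ratio of *Id3* to *Id2* counts was 0.412 in replicate 1 and 0.573 in replicate 2, a change of 1.39-fold (log2 0.48, counting SE 0.0770). The ratio of *Tcf12* to *Tcf3* counts was 1.14 and 1.16, a change of 1.02-fold (log2 0.03, counting SE 0.0567). These errors are of counting alone and hold no variation between mice, so the changes are given as values of these 2 libraries. *Id2* relative to *Tcf3* was 0.983 and 0.802, a log2 change of -0.29 (counting SE 0.0604). *Id3* relative to *Tcf3* was 0.405 and 0.460, a log2 change of 0.18 (counting SE 0.0756). No p is given for these ratios, since the genes were chosen with results of these data known.

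**Figure D4:**
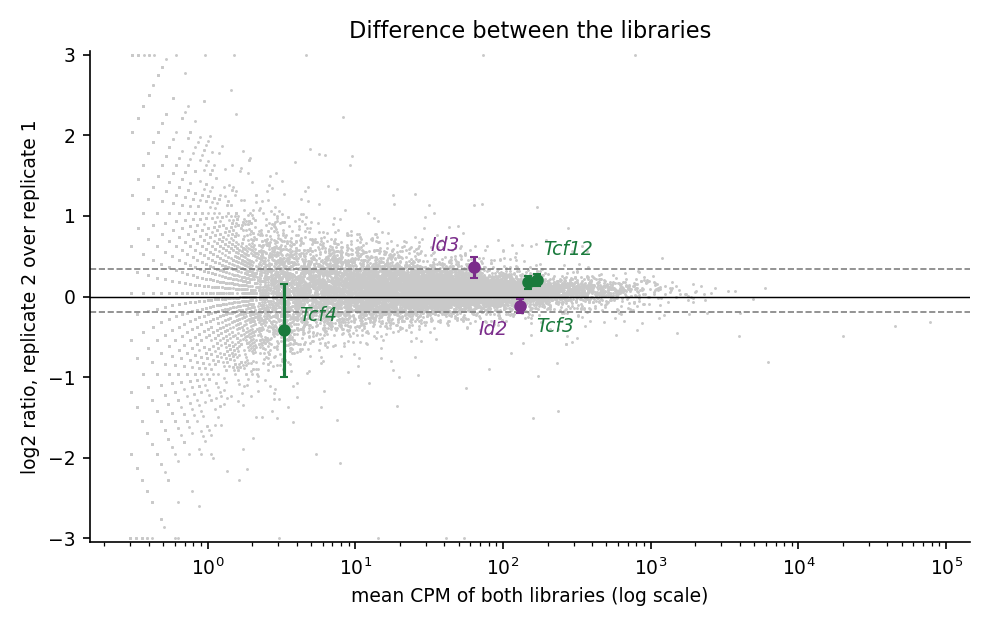
Log2 ratio of replicate 2 to replicate 1 against mean CPM (log axis) for tested genes (grey) and the 5 tested members (coloured). Bars are 95% exact intervals. Of the 15949 tested genes, those with 0 counts in 1 library have no ratio and are not drawn. Values beyond 3 in either direction are drawn at the edge. Dashed lines mark the middle 95% of genes with at least 1000 counts, from -0.20 to 0.34; *Id3* lies just above the upper line, *Tcf3*, *Tcf12*, and *Id2* between the lines, and *Tcf4*, with few counts, has a wide interval.

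The levels of the members were set beside 20 other T cell transcription factor genes, all of which were at or above 1 CPM in both libraries. The highest per kb were *Tcf7*, a factor of early and memory T cells, at 317 CPM per kb, *Ets1*, an ETS factor of lymphocytes, at 165, and *Klf2*, which promotes thymic exit, at 135. *Id2*, at 53.7 CPM per kb, stood below these and *Id3*, *Tcf3*, and *Tcf12* were lower still. Of the 20 genes, 7 were higher in replicate 2 at an adjusted p under 0.05 and 2 were lower, with a median log2 ratio of 0.09 against 0.08 over all genes. These calls, and those in the lists below, are to be read against the 16.3% of all tested genes and the 31.2% of genes with at least 1000 counts that passed. *Myb*, a proto-oncogene active in thymocytes, was the single one past 2-fold, with 372 and 740 counts, a log2 ratio of 1.03 (exact binomial test, adjusted p = 8.02e-29). *Eomes*, the T-box factor of innate memory-like CD8 T cells, had 3275 and 5760 counts, a log2 ratio of 0.86; it was named after its values were seen.

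**Figure D5:**
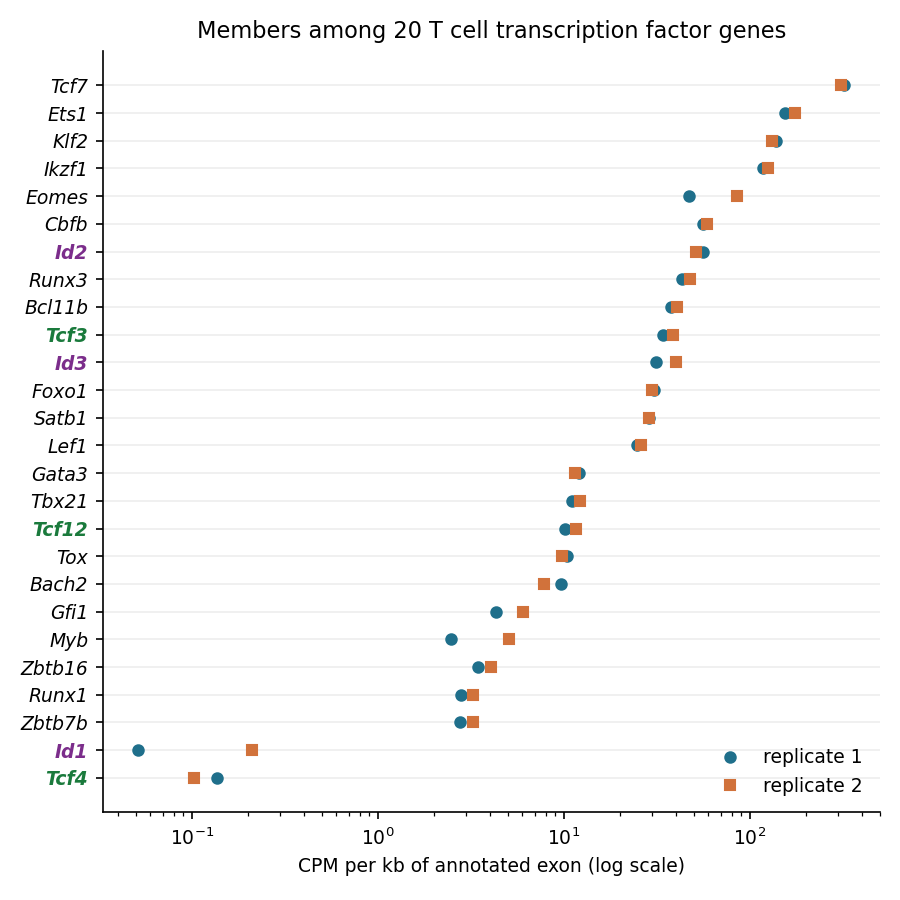
CPM per kb of annotated exon (log axis) of the 6 members (bold, coloured) and 20 T cell transcription factor genes in replicate 1 (circles) and replicate 2 (squares), ordered by mean. *Id2* lies in the upper part of the range, *Tcf3* and *Id3* follow, *Tcf12* is in the middle, and *Tcf4* and *Id1*, the latter with 1 and 4 counts, are drawn below all 20 genes; the replicates of *Eomes* and *Myb* are visibly apart.

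E proteins also pair with tissue-restricted bHLH factors, and these were scarce. Of 17 such partners and LIM cofactors, 2 were at or above 1 CPM in both libraries, against 49.0% of protein-coding genes. *Ldb1*, which bridges LIM proteins in complexes with E proteins, was at 275 and 305 CPM, and *Lmo4*, a LIM-only protein, at 29.0 and 33.5 CPM. *Lmo2*, a LIM-only protein of stem cells, had 5 and 7 counts. *Tal1*, *Ascl2*, *Ptf1a*, *Neurod1*, *Twist1*, *Twist2*, *Nhlh1*, and *Nhlh2*, which direct blood, nerve, pancreas, and mesenchyme fates, had 0 counts in both. Of the 4 genes that could be tested, 1 was higher in replicate 2, *Ldb1*, and none was lower.

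bHLH factors of other classes, which are not the usual partners of E proteins, were widely present, with 18 of 23 at or above 1 CPM in both libraries. Per kb the highest were *Myc*, the growth regulator, at 48.4 CPM per kb, *Usf2*, which binds E-boxes with *Usf1*, at 39.1, and *Max*, the partner of *Myc*, at 33.5. On the same scale *Tcf3* was at 36.5 and *Id2* at 53.7. Of 21 tested, 3 were higher in replicate 2 and none was lower, with none past 2-fold. Of 10 co-activators and co-repressors that E proteins use, 8 were at or above 1 CPM, led per kb by *Kat2a*, a histone acetyltransferase (27.8), *Rcor1*, a subunit of a histone demethylase complex (20.2), and *Sin3a*, a co-repressor scaffold (19.0). Of 9 tested, 2 were higher in replicate 2 and none was lower.

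Genes listed as activated by E proteins in thymocytes ranged from high levels to a few counts in these cells. Of 12 genes, 7 were at or above 1 CPM in both libraries. *Cd3e*, a subunit of the TCR complex, was at 95.1 CPM per kb, *Il7r*, the interleukin 7 receptor, at 77.4, and *Notch1* at 25.4. *Rag1* and *Rag2*, the recombinase genes of immature cells, had 8 and 19 counts and 4 and 1 counts, and *Ptcra*, the pre-TCR α chain, had 2 and 2; these 3 were named after their values were seen. Of 10 tested, 1 was higher in replicate 2, *Gfi1*, a zinc-finger repressor (log2 ratio 0.47), and 1 was lower, *Cd3e* (log2 ratio -0.15), with none past 2-fold. *Gfi1* is also among the 20 transcription factor genes above.

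Upstream of the Id genes, 14 of 15 listed receptors and factors of the Egr, TGF-β, BMP, and STAT5 pathways were at or above 1 CPM in both libraries. The highest per kb were *Tgfbr2*, a TGF-β receptor (46.4 CPM per kb), *Stat5b*, which acts downstream of cytokine receptors (29.0), and *Smad4*, the common Smad (27.1). Of 15 tested, 2 were higher in replicate 2 and 3 were lower. Over all tested genes 16.3% differed, and 31.2% of those with at least 1000 counts, which some of the 15 did not reach. *Bmpr1a*, a BMP receptor, was the single one past 2-fold, with 15 and 3 counts (exact binomial test, adjusted p = 0.0476). Its count in replicate 2 was at the floor of 3 counts. It did not pass the edgeR exact test with a fixed coefficient of 0.1 (adjusted p = 0.514). *Egr1*, which is induced by TCR signals and named after its values were seen, had 1079 and 1028 counts and a log2 ratio of -0.03, and its adjusted p was 0.863 in the exact binomial test. Of 5 genes that set the stability of Id proteins, all 5 were at or above 1 CPM, with *Smurf2*, a ubiquitin ligase, at 24.2 CPM per kb, *Usp1*, a deubiquitinase, at 14.7, and *Fzr1*, an activator of the anaphase-promoting complex, at 7.71. *Smurf2* was lower in replicate 2 (log2 ratio -0.21) and none was higher.

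Markers of other cells that express members were examined beside these values. *Id2* is known to be high in NK cells and innate lymphoid cells, and 6 of 8 of their markers were at or above 1 CPM, with a summed level of 56.6 CPM in replicate 1 and 69.9 in replicate 2. Of these 8 markers, 4 were higher in replicate 2, including *Ncr1* (45 and 112 counts) and *Tyrobp* (29 and 76 counts) by over 2-fold. The other 4 did not pass and had log2 ratios below 0, with 161 and 137 counts of *Fcer1g*, 157 and 130 of *Kit*, 6 and 4 of *Il1rl1*, and 8 and 7 of *Il23r*. The median log2 ratio of the 8 was 0.08, as over all genes. *Tcf4* is high in plasmacytoid dendritic cells and B cells. Of 7 plasmacytoid dendritic cell markers, 3 were at or above 1 CPM, *Klk1* was at 0, *Siglech* had 4 and 2 counts, and the summed level was 248 and 265 CPM, from genes that T cells also express. Of 8 B cell markers, 2 were at or above 1 CPM, *Pax5* had 1 and 0 counts, and the sum of 146 and 152 CPM was mostly *Ighm*. Of 7 markers of CD4+CD8+ thymocytes, 3 were at or above 1 CPM, with a sum of 42.0 and 40.6 CPM. The summed levels were 7.47 and 9.05 CPM for 3 listed markers of γδ T cells, 11.8 and 13.4 for 8 of myeloid cells, 81.2 and 72.9 for 9 of stroma, and 0.478 and 0.616 for 6 of erythroid cells. The stroma sum was mostly *Pecam1*, at 76.9 and 67.4 CPM, while *Kdr* had 0 counts in both libraries. The part of these cells in the levels of the members was not tested.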

How the data were processed

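RNA had been taken from sorted CD4- mature thymocytes of MHC-II0:CD8ab-Tg mice in 2 replicates. The authors made poly(A) libraries, read them as single ends of 50 bases, aligned them with TopHat2 2.1.1 to mm10 and deposited raw counts per gene from HTSeq 0.6.1. The counting annotation and strand setting were not given in the sources used here. The members and the gene lists were chosen with earlier results of these data known.

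From the counts, CPM of the total on genes, Wilson 95% intervals, and CPM per kb were computed, with lengths from GENCODE M21, in which 46394 of 48321 symbols were found. Lines for reads on no gene (55.9% of unique reads in both libraries) or on several genes (3.52% and 2.92%) were left out. Genes with at least 10 counts over both libraries were compared by an exact binomial test (two-sided, Benjamini-Hochberg adjusted p), which was tested on simulated data (scipy 1.17.1, statsmodels 0.14.6, Python 3.11.15). Alternatives used edgeR 4.0.16 and DESeq2 1.42.0 in R 4.3.3. Helix-loop-helix stretches were found by local alignment of the translated *Tcf3* and *Id2* transcripts.

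Named were the 6 members, all symbols easily mistaken for them, and, from each list, the 3 genes highest per kb, those that differed by at least 2-fold at an adjusted p under 0.05, and those at 0 counts. Other genes in the text, among them the genes named for a list's smaller differences, sex-linked genes, and cell type markers, were chosen after their values were seen. Some genes that this rule would name are not reported here.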

Additional observations from a re-analysis of the deposited data

How the results depend on the processing

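Levels in CPM moved by less than the SD between replicates with TMM or DESeq2 library sizes and with either replicate left out, which with 2 replicates cannot move a mean by more. Without mitochondrial and ribosomal RNA genes in the totals, *Tcf3* was at 171 CPM, *Tcf12* at 196 and *Id2* at 152. Per kb of longest transcript the levels were 50.0 for *Tcf3*, 26.9 for *Tcf12*, 0.385 for *Tcf4*, 66.5 for *Id2*, and 50.1 for *Id3*. Per kb of coding exon they were 66.3, 70.1, 1.45, 252, and 179, and 0.282 for *Id1*, from 1 and 4 counts. The Id to E protein ratio was 1.51 with the longest transcript, 3.14 with the coding length, and 0.611 with no length correction, against 1.89. The genes that differed by at least 2-fold numbered 242, against 55 with a minimum of 100 counts, 60 with edgeR at a biological coefficient of variation of 0.1, and 2596 with no fold minimum. Requiring 100 counts also brought *Id2* past the exact binomial test (adjusted p = 0.0410, and 0.000312 to 0.0820 over its alternatives with that test). No member's log2 ratio changed sign under the alternatives run. No paired analysis was possible because all samples belong to 1 group. Depth limits *Tcf4* and *Id1*, and with 2 libraries of 1 group no difference between conditions could be measured.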
